A study of Mus musculus with 9 samples.

Results

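The genes described here are the cytokines interleukin-1 alpha (Il1a), interleukin-1 beta (Il1b), interleukin-18 (Il18) and tumour necrosis factor (Tnf), the interleukin-1 receptor antagonist (Il1rn), and the inflammasome genes Nlrp3, Pycard, Casp1 and Casp4. They were chosen by symbol together with Il1r1, the signalling receptor of both interleukin-1 cytokines. No probe set in the annotation used here named Il1r1, alone or together with other genes. Thus 9 of 10 chosen genes, among 19938 genes measured, are described, each by its single probe set. RNA labelled as from brain tissues (the design text speaks of cortical changes) was hybridised to 1 array per mouse. There were 3 groups of 3 mice: B6SJLF1/J wild-type mice given phosphate-buffered saline (WT), 5xFAD mice given the same saline (APP-PBS) and 5xFAD mice given human amylin, a pancreatic peptide hormone (APP-amylin). All mice were about 5 months old and had received daily intraperitoneal injections for 10 weeks. The 5xFAD line expresses mutant human APP from the neuronal Thy1 promoter and forms amyloid plaques. The labels give neither the sex of the mice nor a strain background for the 5xFAD groups, and do not state whether the wild types were littermates.

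Interleukin-1 beta and interleukin-18 are made as inactive precursors and are cut by caspase-1 once an inflammasome has assembled. In the NLRP3 inflammasome a sensor, NLRP3, recruits the adaptor ASC, which Pycard encodes, and ASC recruits caspase-1. Caspase-4 of the mouse, also known as caspase-11, senses bacterial lipopolysaccharide in the cytosol and cuts the pore former gasdermin D. In the brain many of these genes, though not all, are transcribed mainly by microglia, and NF-kB drives the transcription of several of them. Cleavage and release are steps of the proteins, which arrays of RNA do not measure.

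In APP-PBS mice 3 of the 9 genes, Il1a, Pycard and Casp4, rose against wild type, 0 fell and 6 did not pass (limma, Benjamini-Hochberg adjusted p under 0.05 over all 19938 genes). Of all genes 8.58% were called in this comparison, 3.66% as higher and 4.92% as lower, and 7 of the 9 genes had an unadjusted p under 0.05 (21.2% of all genes). Il1a rose 2.57-fold, Pycard 1.48-fold and Casp4 1.18-fold. Under amylin 8 of the 9 genes had lower means than in APP-PBS mice and 1 had a higher mean. Of these, Il1a, Il1b and Pycard had an unadjusted limma p under 0.05 (3 of 9, against 6.9% of all genes). In that comparison 0 of the 9 genes passed, where 0.00502% of all genes (1 gene) did. Tnf, Il1b, Il1rn, Nlrp3 and Casp4 lay near background in all 3 groups. Il1a lay near background in WT and APP-amylin mice, and its APP-PBS mean exceeded the background limit by 0.00046 log2. The Casp4 call in APP-PBS against WT was lost in 10 of the 16 alternative fits that kept the gene.

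The levels are log2 intensities, and the arrays give no detection call for a gene. Background was therefore taken from 1227 genes of olfactory, vomeronasal and taste receptors, which brain cells transcribe little or not at all. A group mean at or below the 95th percentile of those genes in the same group was called near background; that level was 4.74 in WT, 4.78 in APP-PBS and 4.76 in APP-amylin arrays. Probe sets differ in affinity, so this places a gene's signal only roughly. By this measure 6 of the 9 genes were near background in WT (Il1a, Il1b, Il1rn, Tnf, Nlrp3 and Casp4), 5 in APP-PBS (the same ones without Il1a) and 6 in APP-amylin (the same as in WT). With the 90th percentile as the limit, 5, 2 and 4 genes were near background, and with vomeronasal and taste receptors alone as the reference 2, 0 and 0 were. With the 99th percentile 8, 7 and 6 were, which adds Pycard and Casp1 in WT and Il1a and Casp1 in APP-PBS. Signal at this level need not scale with transcript abundance, so a difference there is one of signal.

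**Figure D1:**
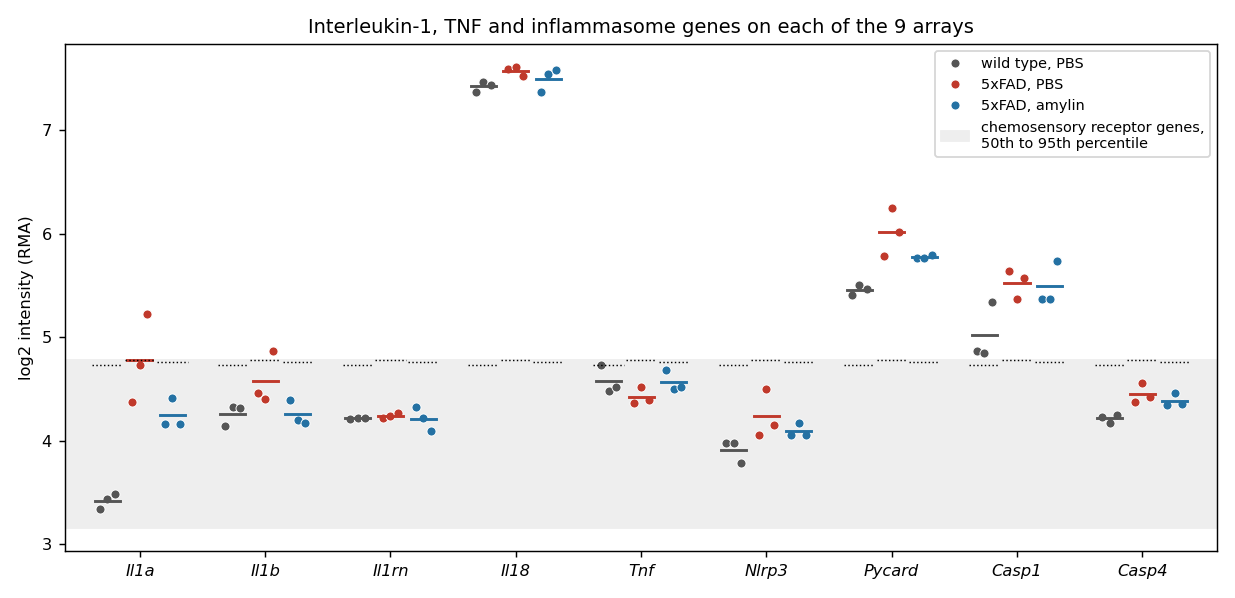
Log2 intensity (y axis) of the 9 genes (x axis) on each array, with a point per array, a bar at each group mean, grey for wild type on PBS, red for 5xFAD on PBS and blue for 5xFAD on amylin. The shaded band runs from the 50th to the 95th percentile of 1227 chemosensory receptor genes, and the dotted lines mark each group's 95th percentile. Il18, Pycard and Casp1 lie above the band on all 9 arrays, and Il1a rises from within it to its upper edge.

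The sequences around the start sites are shown for the 3 genes called in APP-PBS mice and for Tnf, the member with a lower mean there. Each window holds 250 bases before and 50 bases from the gene's start, 5′ to 3′ on the gene's strand, from RefSeq on GRCm38.p6, where all 9 genes were found (13 windows). Capitals mark matches on either strand to 5 motifs. These were the kappaB consensus bound by NF-kB, the AP-1 site TGANTCA, and GAGGAAG, which is a core bound by the myeloid factor PU.1. The other two were the tandem GAAA motif of interferon response elements, with any bases at both spacer positions, and the TATA box as TATAAA. Il1a at chr2:129309923-129310222 (minus strand), Pycard at chr7:127993818-127994117 (minus strand), Casp4 at chr9:5308599-5308898 (plus strand) and Tnf at chr17:35201958-35202257 (minus strand) read:
Il1a: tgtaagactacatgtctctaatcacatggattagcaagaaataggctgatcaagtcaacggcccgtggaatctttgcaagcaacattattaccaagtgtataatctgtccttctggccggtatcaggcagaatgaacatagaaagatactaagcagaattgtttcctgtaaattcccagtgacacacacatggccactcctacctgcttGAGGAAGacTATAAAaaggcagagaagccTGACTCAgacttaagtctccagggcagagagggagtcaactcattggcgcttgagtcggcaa
Pycard: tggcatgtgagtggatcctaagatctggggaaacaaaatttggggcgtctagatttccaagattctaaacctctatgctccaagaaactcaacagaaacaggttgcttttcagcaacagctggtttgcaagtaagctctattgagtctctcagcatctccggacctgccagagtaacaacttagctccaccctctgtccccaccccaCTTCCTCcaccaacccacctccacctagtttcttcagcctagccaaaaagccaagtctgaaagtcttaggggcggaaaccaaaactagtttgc
Casp4: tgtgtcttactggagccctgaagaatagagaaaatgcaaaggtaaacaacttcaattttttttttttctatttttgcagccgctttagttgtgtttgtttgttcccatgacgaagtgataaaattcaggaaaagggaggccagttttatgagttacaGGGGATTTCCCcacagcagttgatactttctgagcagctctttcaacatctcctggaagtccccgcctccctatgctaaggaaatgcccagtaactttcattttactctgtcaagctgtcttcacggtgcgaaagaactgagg
Tnf: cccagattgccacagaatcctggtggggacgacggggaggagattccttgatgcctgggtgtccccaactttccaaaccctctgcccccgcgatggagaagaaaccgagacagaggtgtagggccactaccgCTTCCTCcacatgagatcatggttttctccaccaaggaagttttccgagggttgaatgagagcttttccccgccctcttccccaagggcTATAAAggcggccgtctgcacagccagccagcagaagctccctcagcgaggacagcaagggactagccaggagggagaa

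Il1a holds TATAAA 32 bases before its start, GAGGAAG from -41 to -35 and an AP-1 match from -12 to -6. TATAAA also stands 29 bases before the Tnf start and 31 bases before that of Il1b. Pycard has a reverse-strand match to GAGGAAG from -43 to -37 and none to TATAAA, and Casp1 has no match to any of the 5 motifs. The Casp4 window holds overlapping kappaB matches between -93 and -83, and its second window, which overlaps the first, holds the same site between -104 and -94. Over the 13 windows of the 9 genes, kappaB matched in 3 (4.51% of all 32851 windows), TGANTCA in 2 (7.81%), GAGGAAG in 4 (13.6%), tandem GAAA in 0 (3.44%) and TATAAA in 5 (13.6%). A match describes letters in this window, and windows of one gene can overlap.

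Among the ligands, Il1a showed the widest range. Its log2 values were 3.34, 3.43 and 3.48 in WT, 4.37, 4.74 and 5.22 in APP-PBS and 4.16, 4.41 and 4.16 in APP-amylin mice (replicates 1 to 3). All 6 transgenic arrays lay above all 3 wild-type arrays, and the APP-amylin values reached into the APP-PBS range at its lower end. Interleukin-1 alpha is an alarmin that is active without cleavage by caspase-1 and signals through the same receptor as interleukin-1 beta. The mean rose from 3.42 ± 0.07 (SD, n = 3) in WT to 4.78 ± 0.43 (SD, n = 3) in APP-PBS, a log2 difference of 1.36 ± 0.17 (SE; limma adjusted p = 0.00175). Leaving out any 1 array gave between 1.14 and 1.56. The APP-PBS mean equalled its background limit of 4.78 to 2 decimals, and 1 APP-PBS array, replicate 3, lay above it.

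Il1b, the ligand processed by caspase-1, had values of 4.14, 4.33 and 4.32 in WT, 4.46, 4.40 and 4.87 in APP-PBS and 4.40, 4.20 and 4.17 in APP-amylin mice. Each APP-PBS value was above every wild-type value, and the third of them stood highest. The difference of 0.32 ± 0.12 log2 did not pass (limma adjusted p = 0.158; 95% confidence interval 0.05 to 0.59), and without APP-PBS replicate 3 it was 0.17. The APP-amylin mean of 4.26 ± 0.12 (SD, n = 3) was within 0.01 of the WT mean of 4.26 ± 0.10 (SD, n = 3).

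Il18 was the ligand furthest above background, at the 99.9th percentile of the receptor genes in each group. Its values were 7.38, 7.47 and 7.44 in WT, 7.59, 7.61 and 7.52 in APP-PBS and 7.37, 7.54 and 7.58 in APP-amylin mice. The APP-PBS arrays lay above the WT arrays by a narrow margin, and the APP-amylin arrays spanned both. The difference of 0.15 ± 0.06 log2 between APP-PBS and WT did not pass (limma adjusted p = 0.22), and its 95% confidence interval, 0.0044 to 0.29, excludes a rise of the size seen for Il1a.

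Tnf, a cytokine that signals through Tnfrsf1a and Tnfrsf1b, was the 1 gene of the 9 with a lower mean in APP-PBS than in WT. Its values were 4.73, 4.49 and 4.52 in WT, 4.36, 4.52 and 4.40 in APP-PBS and 4.69, 4.50 and 4.52 in APP-amylin mice. The 3 groups overlapped. The difference of -0.15 ± 0.08 log2 did not pass (limma adjusted p = 0.335; 95% confidence interval -0.33 to 0.03), and without WT replicate 1, the highest array, it was -0.075.

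Il1rn encodes the secreted antagonist that occupies the interleukin-1 receptor without signalling. Its values were 4.21, 4.22 and 4.22 in WT, 4.22, 4.24 and 4.27 in APP-PBS and 4.33, 4.22 and 4.09 in APP-amylin mice, and the groups overlapped. The difference between APP-PBS and WT was 0.02 ± 0.06 log2 (limma adjusted p = 0.897; 95% confidence interval -0.11 to 0.16), near background throughout.

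Among the inflammasome genes, the sensor Nlrp3 had values of 3.98, 3.98 and 3.78 in WT, 4.05, 4.50 and 4.15 in APP-PBS and 4.05, 4.17 and 4.05 in APP-amylin mice. All 6 transgenic arrays were above the wild-type arrays, with APP-PBS replicate 2 the highest. The difference of 0.32 ± 0.11 log2 between APP-PBS and WT did not pass (limma adjusted p = 0.111). Without APP-PBS replicate 2 it was 0.19.

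Pycard, the ASC adaptor, was above background on all 9 arrays. Its values were 5.41, 5.50 and 5.46 in WT, 5.78, 6.25 and 6.02 in APP-PBS and 5.76, 5.76 and 5.79 in APP-amylin mice. The WT arrays lay below all others, and of the APP-amylin arrays 2 lay just below the lowest APP-PBS array and 1 just above it. The mean rose from 5.46 ± 0.05 (SD, n = 3) in WT to 6.02 ± 0.24 (SD, n = 3) in APP-PBS, by 0.56 ± 0.10 log2 (SE; limma adjusted p = 0.00829), and passed under all 17 alternatives that kept it (adjusted p 0.0012 to 0.0428).

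Casp1, the protease that matures interleukin-1 beta and interleukin-18, had values of 4.86, 4.85 and 5.34 in WT, 5.64, 5.37 and 5.58 in APP-PBS and 5.37, 5.37 and 5.74 in APP-amylin mice. WT replicate 3 lay well above the other WT arrays and just below the lowest transgenic ones. The difference of 0.51 ± 0.15 log2 between APP-PBS and WT was close in size to that of Pycard but did not pass (limma adjusted p = 0.0631). Without WT replicate 3 it was 0.67 and passed (limma adjusted p = 0.0208). Without WT replicate 1 it was 0.44 and without WT replicate 2 it was 0.43, and neither passed (limma adjusted p = 0.229 and 0.189). Of the 17 alternatives that kept the gene, it passed in 3 and did not pass in 14 (limma adjusted p 0.0165 to 0.229).

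Casp4 values were 4.23, 4.17 and 4.25 in WT, 4.38, 4.56 and 4.42 in APP-PBS and 4.35, 4.46 and 4.36 in APP-amylin mice. The 6 transgenic arrays stood above the wild-type ones by a small amount, all below the background limit. The rise of 0.24 ± 0.06 log2 (SE; limma adjusted p = 0.0426) was lost without any 1 of the WT arrays, without APP-PBS replicate 2 or 3 and without APP-amylin replicate 3 (adjusted p 0.0561 to 0.133).

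Counted over the 9 genes, the APP-PBS and WT arrays did not overlap in 7, all higher in APP-PBS, whereas of all genes 26.8% did not overlap and 11.2% were higher without overlap. The median difference was 0.32 log2, against -0.01 over all genes. The inflammasome genes lay between 0.24 (Casp4) and 0.56 (Pycard), and the ligands ran from -0.15 (Tnf) to 1.36 (Il1a).

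**Figure D2:**
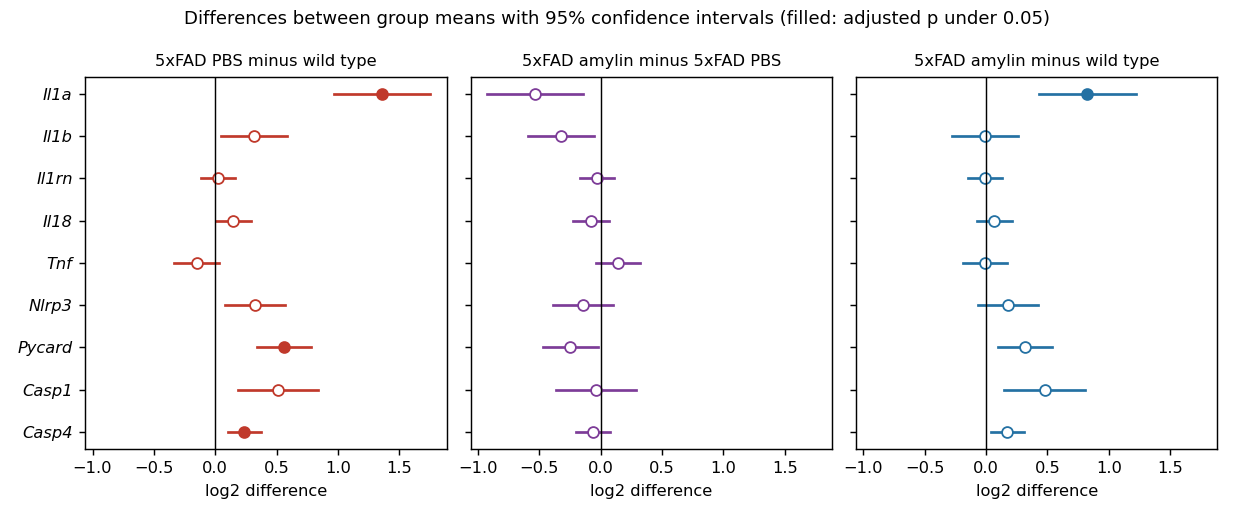
Log2 differences between group means (x axis) for the 9 genes (y axis) in the 3 comparisons, as points with 95% confidence intervals from the limma fit; filled points have an adjusted p under 0.05. Il1a, Pycard and Casp4 are filled for APP-PBS against WT, none is filled for APP-amylin against APP-PBS, and Il1a alone is filled for APP-amylin against WT.

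Microglial markers rose on the same arrays. Of 19 measured microglial marker genes 18 rose in APP-PBS mice, with a median difference of 1.33 log2, among them the chemokine receptor Cx3cr1 (0.96 ± 0.14), the signalling adaptor Tyrobp (2.55 ± 0.22) and the lysosomal protein Cd68 (2.47 ± 0.15). The intensities of the list summed to 3400 to 3440 in WT, 7170 to 10900 in APP-PBS and 6730 to 9300 in APP-amylin arrays, and 0 of the 19 were near background in all groups. In such bulk tissue, more cells of a type and more RNA per cell cannot be told apart. The mean of the list was lowest among APP-PBS arrays in replicate 1 (8.23), where Il1a, Pycard, Nlrp3 and Casp4 also had their lowest APP-PBS values, and highest in replicate 2 (8.82), where Pycard, Nlrp3 and Casp4 were highest. Other genes were ordered differently: Casp1 was highest in replicate 1 and lowest in replicate 2, Il1b was lowest in replicate 2, and Il1a and Il1b were highest in replicate 3. The part of microglial content in these differences was not tested.

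Lists of other immune cells showed 0 called genes in APP-PBS against WT, where 8.58% of all genes were called. These short lists held 5 monocyte, 10 neutrophil, 11 lymphocyte and 7 border macrophage markers that were measured. Their median differences were 0.04, 0.01, 0.01 and 0.13 log2. The neutrophil protein S100a8 was near background at 3.60 in WT and in APP-PBS. Of these lists 4, 5, 9 and 3 genes were near background in all groups, and 5 monocyte genes summed to intensities of 181 to 209 in WT and 201 to 221 in APP-PBS, 10 neutrophil genes to 224 to 233 and 217 to 243, 11 lymphocyte genes to 179 to 181 and 167 to 187, and 7 border macrophage genes to 224 to 236 and 253 to 268. Of the resident cell types, 8 endothelial markers had a median difference of 0.27 log2 (8 of 8 higher, 2 rose) and 10 neuronal markers -0.09 (4 fell). The 6 oligodendrocyte markers had a median of -0.22 (1 fell) and the 10 astrocyte markers 0.01 (1 rose, 1 fell). The astrocyte marker that rose was Gfap, by 1.63 ± 0.14 log2 (limma adjusted p = 0.000258), while Fgfr3 differed by -0.41 ± 0.08.

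Markers of brain regions differed by more than most of the 9 genes did. In APP-PBS against WT 6 of 6 striatal markers rose (median 1.70 log2) and 7 of 8 hippocampal markers fell (median -1.03). In the same comparison 7 of 8 thalamic markers fell (median -1.09) and 2 of 7 cortical markers fell (median -0.15). Near background in all groups were 2 of the 8 hippocampal markers, the called Tdo2 among them, and 0 of the striatal, thalamic and cortical markers. Spink8, another called hippocampal marker, was near background in both 5xFAD groups. In APP-amylin against WT 6 of 6 striatal markers rose, and 7 of 8 hippocampal and 7 of 8 thalamic markers fell, with medians of 1.61, -0.995 and -1.10. A difference in the tissue taken cannot be told apart from the genotype here, and the part of the regional differences in the values of the 9 genes was not tested.

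The genes around the 9 were read in lists by role. Together these 9 lists hold 156 other measured genes, of which 18 rose, 4 fell and 134 did not pass in APP-PBS against WT, that is 14.1% called against 8.58% of all genes; their median difference was 0.02 log2. Of 11 interleukin-1 family ligands and decoys, Il1a and Il18bp rose; Il18bp, a secreted protein that neutralises interleukin-18, rose by 0.27 ± 0.06 log2 (limma adjusted p = 0.0312). Il33, an alarmin of astrocytes and oligodendrocytes, differed by -0.07 ± 0.15 and the decoy receptor Il1r2 by 0.00 ± 0.09. Of these 11 ligands and decoys 7 were near background in all 3 groups. Of 17 receptor and proximal signalling genes 3 rose, the adaptor Myd88 (0.31 ± 0.08), Irak3 (0.19 ± 0.05) and Tab2 (0.19 ± 0.04), and Tollip, an inhibitor of interleukin-1 receptor signalling, fell by 0.18. Il1rap, the co-receptor that Il1r1 needs, had a difference of -0.22 ± 0.12 (adjusted p = 0.345).

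On the TNF side, 0 of 16 superfamily ligands were called, and 10 of the 16 were near background in all groups. Of 25 receptors, Tnfrsf21 and Relt fell by 0.28 and 0.32 log2 and 0 rose; the receptor Tnfrsf1a differed by 0.26 ± 0.08 (limma adjusted p = 0.069) and Tnfrsf1b by 0.12 ± 0.11 (adjusted p = 0.65). Of 22 genes of TNF shedding and receptor signalling 3 rose: Adam17, the sheddase that frees TNF from the membrane (0.31 ± 0.06, adjusted p = 0.0154), the initiator caspase Casp8 (0.56 ± 0.11) and the deubiquitinase Cyld (0.37 ± 0.07).

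Of 17 inflammasome sensors 3 rose, the DNA sensor Aim2 (5.06 in WT to 5.71 in APP-PBS, 0.66 ± 0.12 log2, adjusted p = 0.0115), Naip2 (0.84 ± 0.15) and Naip6 (0.43 ± 0.08); the Naip genes are near-identical copies, so the assignment of signal between them is uncertain. Of the 17 sensors 10 were near background in all 3 groups, Naip6 among them, and Naip2 was near background in WT. Nlrc4 (-0.05 ± 0.08) and Nlrp1b (0.06 ± 0.06) did not pass and were near background. Of 20 adaptor, caspase, pore and regulator genes 8 rose and 0 fell, with a median of 0.21 log2. Apart from Pycard and Casp4 these were Casp12 and the interferon-inducible genes Gbp3, Gbp5, Gbp7, Irgm1 and Trim30a, of which Trim30a rose by 1.19 ± 0.21 and Irgm1 by 0.79 ± 0.10; guanylate-binding proteins also have close paralogs. Casp12 and Gbp5, like Casp4, were near background in all 3 groups. The pore former Gsdmd (0.10 ± 0.07), the NLRP3 partner Nek7 (0.00 ± 0.05) and the ATP-gated channel P2rx7 (0.32 ± 0.09, adjusted p = 0.0552) did not pass.

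Downstream, 0 of 15 NF-kB subunits, inhibitors and kinases were called in APP-PBS against WT by limma, where 8.58% of all genes were. Of the 15, 11 had lower means, but the list median was -0.02 log2, close to the -0.01 over all genes. Nfkbia, the inhibitor that NF-kB itself induces, differed by -0.39 ± 0.15 (limma adjusted p = 0.161). Of 25 genes known to respond to interleukin-1 or TNF 2 rose and 1 fell, and 8 of the 25 were near background in all 3 groups. The chemokine Ccl3 rose from 4.46 to 8.17, by 3.72 ± 0.25 log2 of signal from a WT level near background, Cxcl10 rose by 0.44 ± 0.10, and Ptgs2, the inducible cyclooxygenase that neurons also express, fell by 0.53. Il6 (0.10 ± 0.08) and Ccl2 (0.04 ± 0.11) were near background in each group and did not pass.

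**Figure D3:**
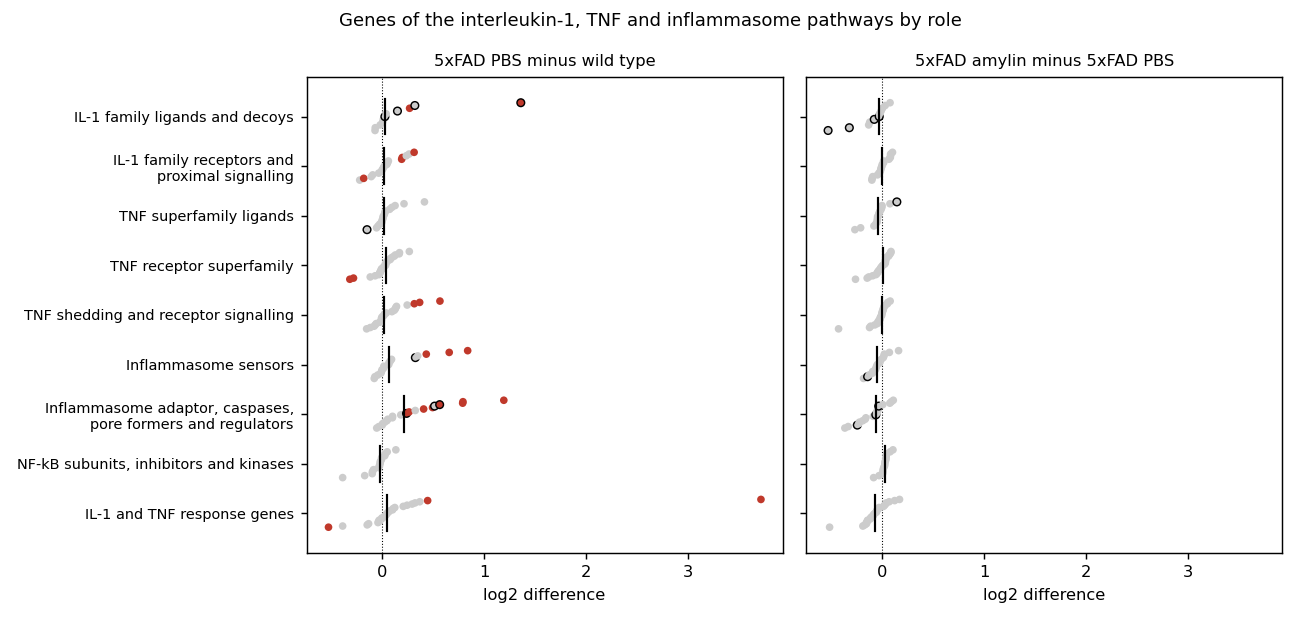
Log2 differences (x axis) of the genes on 9 role lists (y axis) for APP-PBS minus WT (left) and APP-amylin minus APP-PBS (right). Each point is a gene, coloured where limma's adjusted p is under 0.05 and otherwise grey, with a black rim for the genes described here and a vertical bar at the list median. Coloured points are most frequent on the left in the inflammasome adaptor list (8 of 20), and the right panel has none.

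Amylin was compared with saline within 5xFAD mice. Of the 9 genes 0 passed, where 0.00502% of all genes did (1 gene), and 3 of 9 had an unadjusted p under 0.05 (6.9% of all genes). Il1a differed by -0.53 ± 0.17 log2 (limma adjusted p = 0.675; 95% confidence interval -0.93 to -0.14), and without APP-PBS replicate 3 by -0.31. Il1b differed by -0.32 ± 0.12 (adjusted p = 0.696; -0.59 to -0.05), and its highest APP-amylin value, 4.398, lay just below its lowest APP-PBS value, 4.403. Without APP-PBS replicate 3 the Il1b difference was -0.18. Il1b was the 1 gene of the 9 in which these groups did not overlap, where 9.3% of all genes did not overlap, 3.81% being lower and 5.49% higher under amylin. Pycard differed by -0.25 ± 0.10 (adjusted p = 0.712; -0.47 to -0.02), and without APP-PBS replicate 2 by -0.13.

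The other 6 genes differed by less. Nlrp3 differed by -0.14 ± 0.11, Il18 by -0.08 ± 0.06, Casp4 by -0.06 ± 0.06, Casp1 by -0.04 ± 0.15 and Il1rn by -0.03 ± 0.06 log2. Single arrays set much of this: Nlrp3 differed by -0.012 and Casp4 by -0.0098 without APP-PBS replicate 2, and Il18 by -0.015 without APP-amylin replicate 1. Casp1 (0.025 without APP-amylin replicate 1) and Il1rn (0.032 without APP-amylin replicate 3) changed sign. Tnf was the 1 gene with a higher mean under amylin, by 0.14 ± 0.08 (adjusted p = 0.778; 95% confidence interval -0.04 to 0.32), and by 0.084 without APP-amylin replicate 1. The median over the 9 genes was -0.08, against 0.00065 over all genes. The 95% confidence intervals of Nlrp3 (-0.39 to 0.10) and Casp1 (-0.36 to 0.29) are wide, so an adjusted p above the threshold does not show equal levels.

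The microglial markers had a median difference of -0.25 log2 in this comparison, with 19 of 19 lower under amylin and 0 called. The 6 oligodendrocyte markers had a median of -0.26, with 5 of 6 lower and 0 called, and 5 of the 6 fell in APP-amylin against WT (median -0.46). The 10 neuronal markers had a median of 0.09 (9 of 10 higher), the 8 endothelial markers -0.09 (7 of 8 lower) and the 10 astrocyte markers -0.04 (6 of 10 lower), with 0 called. The part of these differences in the values of the 9 genes was not tested. Among the 156 related genes 0 were called, and 8 had an unadjusted p under 0.05. The related genes with the smallest p included Casp8 (-0.43 ± 0.11, adjusted p = 0.6), Casp12 (-0.34 ± 0.07, adjusted p = 0.504), Tnfrsf19 (-0.26 ± 0.07, adjusted p = 0.574) and Gbp5 (-0.19 ± 0.06, adjusted p = 0.664); Casp8, Casp12 and Gbp5 had risen in APP-PBS mice, and both comparisons share those APP-PBS arrays.

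Against wild type, APP-amylin mice had 1 called gene of the 9, Il1a, higher by 0.83 ± 0.17 log2 or 1.77-fold (limma adjusted p = 0.0263), where 5.21% of all genes were called, 2.35% as higher and 2.86% as lower. That call was lost without any 1 of the WT or APP-amylin arrays (adjusted p 0.0558 to 0.115), while the difference stayed between 0.74 and 0.87. Casp1 (0.48 ± 0.15, adjusted p = 0.102), Pycard (0.32 ± 0.10, adjusted p = 0.109), Nlrp3 (0.18 ± 0.11, adjusted p = 0.429) and Casp4 (0.17 ± 0.06, adjusted p = 0.151) did not pass, and with Il1a these made 5 genes higher without overlap and 0 lower (of all genes 23.1% did not overlap, 10.8% higher and 12.3% lower). Pycard passed without APP-PBS replicate 1 (adjusted p = 0.0292) or 2 (0.032), and Casp1 without WT replicate 3 (0.0347). Il1b, Il1rn and Tnf differed from wild type by -0.0058, -0.0065 and -0.0088 log2. This comparison shares its arrays with both others. Among related genes 11 rose and 1 fell, among them Aim2 (0.56), Naip2 (0.65), Il18bp (0.29), Myd88 (0.31) and Tnfrsf1a (0.33).

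**Figure D4:**
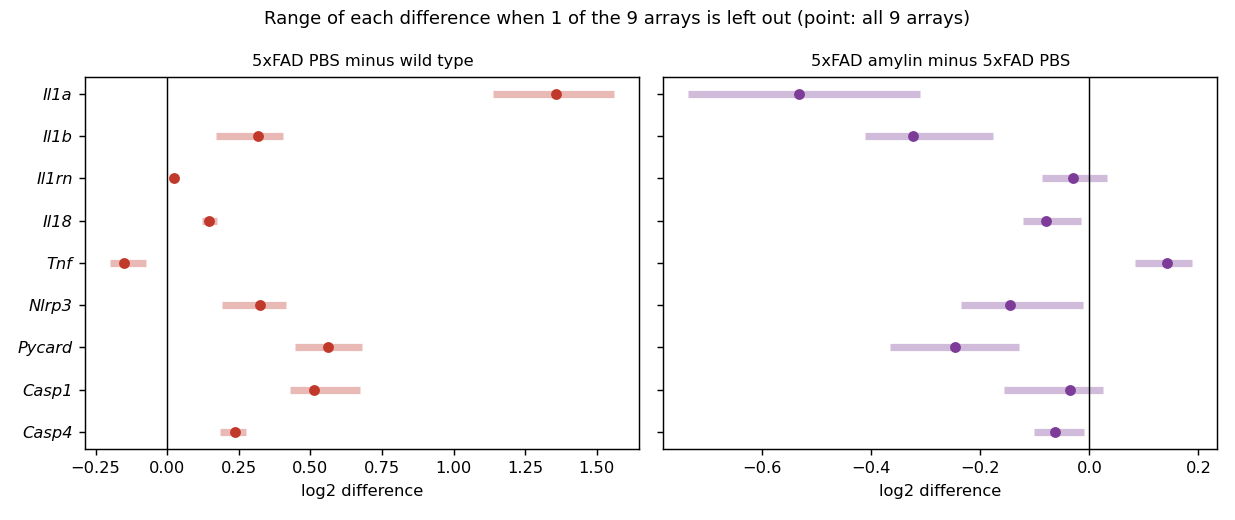
Log2 difference (x axis) of each of the 9 genes (y axis) for APP-PBS minus WT (left) and APP-amylin minus APP-PBS (right); the point is the value from all 9 arrays and the bar runs from the lowest to the highest value when 1 array is left out. On the left the bars of all 9 genes stay on one side of 0, with Il1a between 1.14 and 1.56; on the right those of Il1rn and Casp1 cross 0.

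The genes most like Il1a, Pycard, Casp1 and Il18, the members above background in at least 1 group, were found by the root mean square difference of mean-centred log2 values over the 9 arrays, as a description. Il1a was above background in APP-PBS alone, by 0.00046 log2, so its 6 other arrays are from groups near background. The nearest genes to Il1a were Ptprc, the common leukocyte antigen CD45 (0.125), Lair1 (0.159) and the microglial lectin Siglech (0.162), against a median of 0.61 over all genes. For Pycard they were the lysosomal protease Ctsl (0.0536), the receptor Hcar2 (0.068) and Hcls1 (0.0694), with a median of 0.274. For Casp1 they were Gnal (0.0897), Samd9l (0.0951) and Fancb (0.104), with a median of 0.315. For Il18 they were Ssu72 (0.0293), Ralgapa2 (0.0303) and C330018D20Rik (0.0322), with a median of 0.134. Likeness over these arrays includes the difference between the groups, so it adds no evidence on that difference.

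Equal values recurred between arrays. In 6 of the 9 genes at least 2 arrays shared 1 value to 6 decimals, as did 54.8% of all genes, and in Il1rn, Tnf, Nlrp3 and Casp1 at least 3 arrays did (31.6% of all genes). Small SDs, such as 0.0069 for Il1rn in WT, rest partly on such shared values.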

How the data were processed

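Total RNA was labelled with the Ambion WT Expression Kit and the GeneChip WT Terminal Labeling Kit, per the labels' protocols. The deposited log2 intensities of 35556 probe sets on 9 arrays were used as they are. Per the submitters' processing notes the authors used RMA from oligo, with versions and genome build not given in the sources used here. RMA corrects background, equalises the distributions of the arrays and fits probe sets; the array medians lay between 5.71 and 5.79. Of the probe sets 21789 named 1 gene symbol, 1621 several and 12146 none; where a gene had several the one with the highest mean was kept, leaving 19938 genes. A single limma fit (version 3.58.1, R 4.3.3) covered all 9 arrays, without filter, block or trend (6 residual and 3.53 prior degrees of freedom), with Benjamini-Hochberg adjustment over all genes and a threshold of 0.05. The median SE of a difference was 0.07. The number of arrays limits the precision. The fit was also run on simulated data, drawn as independent normal noise around each gene's mean with the spread that the fit itself gave. Such data hold no shared values and no differences in the tissue taken, so that run does not test their effect. Replicates are labelled biological. Arrays of 1 group correlated at 0.996 to 0.999 and arrays of different groups at up to 0.997, so none was an exact copy of another. Correlations this close cannot tell technical repeats from biological replicates.

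The members, lists and tests were chosen with earlier results of these data known. The named genes are all members, per list the 4 genes with the smallest p for APP-PBS against WT and the 2 for amylin against APP-PBS, fixed partners of the members, and the 3 genes nearest to each member above background; other called genes of a list are given by name so that each count can be read. Lists were described by counts and medians, with no set test.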

Additional observations from a re-analysis of the deposited data

How the results depend on the processing

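Il1a and Pycard kept their direction and passed in APP-PBS against WT under every alternative that kept them in the table, and of the 9 genes 0 passed in amylin against APP-PBS under any. Leaving out 1 array gave 863 to 1779 called genes for APP-PBS against WT (863, 1126 and 996 without WT replicates 1, 2 and 3, and 969 without APP-PBS replicate 3), 0 to 7 for amylin against APP-PBS and 447 to 1086 for amylin against WT (447, 602 and 596 without WT replicates 1, 2 and 3, and 548 without APP-amylin replicate 3). It gave 0 to 2 called members for amylin against WT. The lowest 50% of genes included all members but Il18, and leaving them out left 0 called members for APP-PBS against WT and for amylin against WT, because the called members are no longer in the table. Leaving out the lowest 25%, Il1a among them, left 0 for amylin against WT, while Casp1 passed in APP-PBS against WT (adjusted p = 0.0482). A fit of only the 2 groups compared gave 2 called members for amylin against WT (Il1a and Pycard), and 0 called genes for amylin against APP-PBS. Casp4 did not pass with quantile normalization repeated (adjusted p = 0.0607), a trended and robust prior (0.052) or only the 2 groups compared (0.0619).

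Whether the replicate numbers pair the arrays was not settled. Between same-numbered arrays of different groups, deviations from the group means correlated at -0.056 to 0.183, over 0.1 in 4 of 9 pairs. Between differently numbered arrays of different groups they correlated at -0.232 to 0.126. These ranges overlap, and the same-numbered pairs reached higher. With the replicate number as a block, the fit called 0 genes for amylin against APP-PBS and 2 members for amylin against WT; Casp1 passed in both comparisons with WT (adjusted p = 0.0165 for APP-PBS and 0.0297 for APP-amylin), and Casp4 had an adjusted p of 0.0591 in APP-PBS against WT. It changed the call of no other member.

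Differences close to 0 changed sign. Against WT, APP-amylin differed by 0.0057 in Il1b, 0.0086 in Il1rn and 0.014 in Tnf with quantile normalization repeated, and by 0.0034, 0.0027 and 0.00037 with each array centred on its median. Leaving out 1 array gave -0.077 to 0.038 for Il1b, -0.063 to 0.055 for Il1rn and -0.067 to 0.068 for Tnf in that comparison, and -0.087 to 0.032 for Il1rn and -0.16 to 0.025 for Casp1 in amylin against APP-PBS. The cause was not tested. The number of genes near background in all 3 groups, 5, became 2 with the 90th percentile, 6 with the 99th, and 0 with vomeronasal and taste receptors alone; in that last setting it was 2 in WT, 0 in APP-PBS and 0 in APP-amylin, and with the 90th percentile it was 2 in APP-PBS. Signal near background limits what can be said of Il1b, Il1rn, Tnf, Nlrp3 and Casp4.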
